A study of Mus musculus with 7 samples.

Results

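Cholesterol and fatty acid synthesis was represented by 32 genes, named from the pathway and matched by symbol in the gene table of mouse hearts. All 32 were found among 14641 genes, and all 32 were tested. The list held 17 enzymes of the sterol route, 5 genes that control the sterol regulatory element binding proteins (SREBPs), and 10 genes that build, elongate or desaturate fatty acids. The rule for membership was a list of gene names, and no measured value entered it, although the list was drawn up with earlier results of these data known.

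Whole hearts of mNrf2-TG mice were compared with those of non-transgenic (NTG) littermates, to learn how cardiac transcripts differ when Nrf2, a transcription factor of antioxidant genes, is present in excess. All mice were male C57BL/6J, and mNrf2-TG mice carried full-length mouse Nrf2 behind the αMHC promoter, which is active in cardiomyocytes. The labels give 6 months of age for the mNrf2-TG hearts and no age for the NTG hearts. The methods give 6 to 7 months for the mice, and the series description gives 7 to 8 months. There were 4 NTG libraries (1 to 4) and 3 mNrf2-TG libraries (17 to 19), taken as 1 per mouse. The tests set the difference between the groups against the spread between libraries, estimated with information from all genes.

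Cells make cholesterol from acetyl-CoA through mevalonate, isoprenoid diphosphates, squalene and lanosterol. Fatty acids start from the same acetyl-CoA, which is carboxylated, assembled into palmitate, and then elongated and desaturated. SREBPs switch on the genes of both routes: when membrane sterols are low, Scap escorts them from the endoplasmic reticulum for cleavage, and Insig proteins hold them back when sterols are plentiful. The adult heart burns fatty acids as its main fuel and takes up most of its lipid from the blood.

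The 5 members that passed the test were Scd2, Dhcr7 and Insig2, which rose in mNrf2-TG hearts, and Hmgcs1 and Elovl5, which fell. The sequences before the start sites of these genes are shown because SREBP, NF-Y and Nrf2 each have a known DNA motif that could be looked up there. RefSeq promoter windows (GRCm38.p6) were given for 26 of the 32 members, not for Fdps, Fdft1, Sqle, Scd1, Scd2 or Fads1. The 250 bases before a start site follow for the called genes with a window, and for Mvk, which was not called and is shown because its window holds the same ARE-like letters as that of Dhcr7, each 5′ to 3′ on the gene's strand: Hmgcs1 at chr13:119690101-119690350 (+), Dhcr7 at chr7:143829964-143830213 (+, the third of its 3 listed starts), Insig2 at chr1:121332590-121332839 (−, the first of its 3 listed starts), Elovl5 at chr9:77917115-77917364 (+) and Mvk at chr5:114444019-114444268 (+). Capitals mark matches on either strand to TCACNCCAC (SRE-like), CCAAT (the NF-Y motif, which reads ATTGG on the other strand) and TGACNNNGC (ARE-like, the antioxidant response element that Nrf2 binds).
Hmgcs1: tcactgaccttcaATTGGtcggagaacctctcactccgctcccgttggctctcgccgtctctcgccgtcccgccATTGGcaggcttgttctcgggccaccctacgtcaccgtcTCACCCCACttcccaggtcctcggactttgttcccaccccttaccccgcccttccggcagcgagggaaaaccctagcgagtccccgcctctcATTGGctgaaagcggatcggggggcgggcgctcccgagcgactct
Dhcr7: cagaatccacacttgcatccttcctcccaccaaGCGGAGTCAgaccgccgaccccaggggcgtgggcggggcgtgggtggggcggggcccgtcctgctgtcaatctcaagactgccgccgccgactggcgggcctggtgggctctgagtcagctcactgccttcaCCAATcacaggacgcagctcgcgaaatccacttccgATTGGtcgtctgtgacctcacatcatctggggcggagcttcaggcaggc
Insig2: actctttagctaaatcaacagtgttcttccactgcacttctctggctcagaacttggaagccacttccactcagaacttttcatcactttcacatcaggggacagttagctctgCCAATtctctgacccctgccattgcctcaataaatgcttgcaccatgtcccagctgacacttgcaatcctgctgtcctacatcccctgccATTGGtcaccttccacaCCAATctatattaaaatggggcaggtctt
Elovl5: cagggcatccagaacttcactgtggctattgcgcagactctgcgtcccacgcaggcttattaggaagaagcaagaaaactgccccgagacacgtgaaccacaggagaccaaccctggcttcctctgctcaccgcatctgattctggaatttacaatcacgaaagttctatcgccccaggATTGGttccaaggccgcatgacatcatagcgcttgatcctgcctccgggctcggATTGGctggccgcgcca
Mvk: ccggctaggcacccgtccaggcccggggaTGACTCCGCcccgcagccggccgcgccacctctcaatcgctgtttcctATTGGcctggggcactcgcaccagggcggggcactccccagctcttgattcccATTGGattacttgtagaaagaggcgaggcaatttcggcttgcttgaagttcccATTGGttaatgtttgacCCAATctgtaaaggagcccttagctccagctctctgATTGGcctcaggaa

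The SRE-like letters were found in 1 of the 26 members with a window, Hmgcs1, 137 to 129 bases before its start site. They were found for 1.38% of the 11680 listed genes with a window and in 1.24% of all 32851 windows. CCAAT stood in a window of 22 of the 26 members (84.6%), against 42.9% of the listed genes and 37.4% of all windows, and 12 members had several in 1 window. The ARE-like letters were found for 4 members, Mvk, Pmvk, Hsd17b7 and Dhcr7 (15.4%), against 16.7% of the listed genes and 12.4% of all windows. Dhcr7 and Mvk carried the same ARE-like letters, TGACTCCGC, at 217 to 209 bases before the start on the reverse strand in Dhcr7 and at 221 to 213 bases before it on the forward strand in Mvk. The motifs did not overlap each other in the sequences printed. For Dhcr7 and Insig2 the window printed is the 1 of 3 that holds a match, and their other windows hold none of the 3 motifs. A match is a description of letters, and binding was not measured.

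Between 6534684 and 8405857 reads per library were counted. NTG replicate 3 stood apart from the other NTG libraries, at a distance of 20.9 to 21.9 in the authors' log2 values, against 11.4 to 16.0 among the other NTG libraries and 26.0 to 31.5 between the groups. Nfe2l2, the gene of Nrf2, had normalised read counts of 752 to 1402 in NTG and 10751 to 12030 in mNrf2-TG (Log2FC 3.36, SE 0.18, adjusted p = 2.96e-06), a count that includes reads of the transgene. The labelled tissue was checked against cardiomyocyte markers, whose summed level was 24084 to 29112 CPM per kilobase of exon in NTG and 22111 to 23863 in mNrf2-TG. Normalised read counts are counts scaled by TMM to the mean library size, Log2FC is mNrf2-TG against NTG, and a gene was called where edgeR's quasi-likelihood test gave a Benjamini-Hochberg adjusted p under 0.05 over all 14637 genes tested.

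By that test 5 of the 32 members were called (15.6%), 3 higher and 2 lower, against 17.2% of all genes tested. By direction, 8.48% of all genes were called higher and 8.73% lower. The groups did not overlap for 8 members, 5 with every mNrf2-TG library above every NTG library and 3 with every one below, against 29.7% of all genes. The looser criteria of the study, more than 2-fold at p under 0.05 without adjustment, were met by 1 member, Scd2, and by 5.65% of all genes. The median Log2FC of the members was 0.11, beside a median of 0.00 over all genes, with 21 members positive and 11 negative. Both counts were thus near or below those of all genes. In whole-heart RNA, fewer cells of a type and less RNA per cell cannot be told apart.

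**Figure D1:**
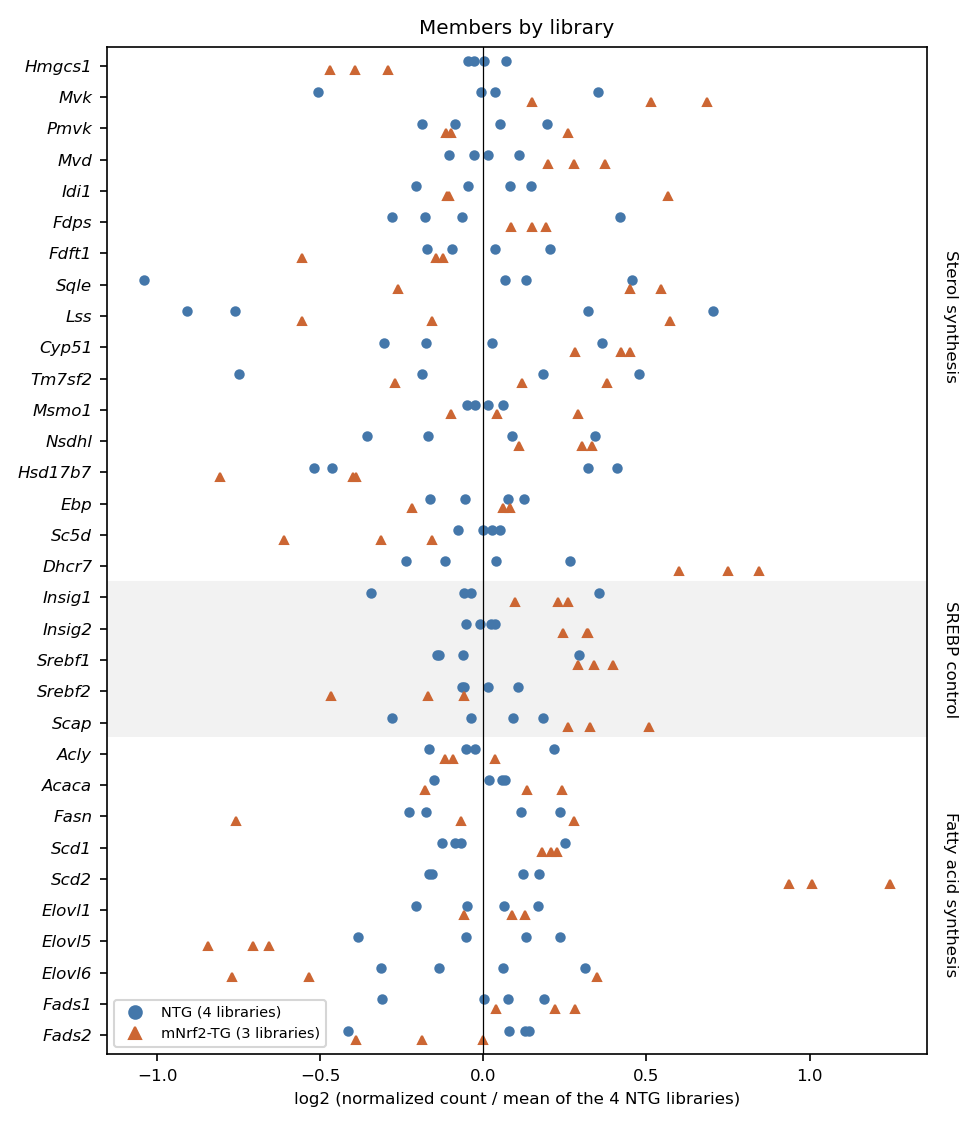
Normalised read count of each of the 32 members in each library, as log2 of its ratio to the mean of the 4 NTG libraries (x axis), with circles for NTG and triangles for mNrf2-TG. Scd2 and Dhcr7 have their mNrf2-TG libraries to the right of all NTG libraries, Elovl5 and Hmgcs1 have them to the left, and most other members show the groups mixed.

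Hmgcs1 (chr13:119690379-119708260, +) encodes the cytosolic synthase that makes HMG-CoA, the substrate of the committed step to mevalonate. Its normalised read counts were 341, 337, 365 and 348 in NTG 1 to 4, and 265, 251 and 284 in mNrf2-TG 17 to 19. Every mNrf2-TG heart lay below every NTG heart, and the NTG libraries lay close together. The mean fell from 348 ± 12.4 (SD, n = 4) to 267 ± 16.5 (SD, n = 3), a Log2FC of -0.38 (SE 0.08, adjusted p = 0.0108). Hmgcs1 shares 557 exon bases with the antisense gene Gm48342, and it is not stated whether strand was used in counting.

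The next steps of the mevalonate route held no called gene. Mvk, the kinase of mevalonate, had 21.8, 39.6, 30.9 and 31.9 normalised read counts in NTG and 34.4, 44.3 and 49.9 in mNrf2-TG (Log2FC 0.46, SE 0.23, adjusted p = 0.201). Mvd, which decarboxylates the diphosphate to isopentenyl diphosphate, had 24.7 to 28.7 in NTG and 30.5 to 34.5 in mNrf2-TG, with no overlap and a Log2FC of 0.29 (SE 0.18, adjusted p = 0.314). The groups of Mvk overlapped, and those of Mvd did not. Pmvk, which adds the next phosphate, had a Log2FC of 0.02 with a 95% interval from -0.30 to 0.35. Idi1, which isomerises isopentenyl diphosphate, had 37.7, 37.4 and 59.9 in mNrf2-TG against 35.1 to 44.8 in NTG, so that mNrf2-TG 19 alone lay above the NTG range. Fdps, which joins the isoprenoid units to farnesyl diphosphate, had a Log2FC of 0.15 (SE 0.18, adjusted p = 0.603). Stretches of 50 bases that also occur in other genes made up 25.3% of those of Idi1 and 26.2% of those of Fdps.

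From squalene to lanosterol, no gene passed the test. Fdft1, squalene synthase, had 402, 453, 349 and 367 in NTG and 360, 267 and 355 in mNrf2-TG, with a Log2FC of -0.26 (SE 0.13, adjusted p = 0.184). Only mNrf2-TG 18 lay below the NTG range of Fdft1. Of the stretches of 50 bases of Fdft1, 26.5% also occur in other genes, mostly Ctsb. Sqle, which oxidises squalene, and Lss, which closes the rings to lanosterol, were among 4 members with a mean normalised read count under 20. The 95% intervals of their Log2FC ran from -0.56 to 1.08 for Sqle and from -1.01 to 1.09 for Lss, so that a 2-fold rise lay within both.

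Of the enzymes that turn lanosterol into cholesterol, Dhcr7, the reductase of a final step, was called. Dhcr7 (chr7:143823145-143848410, +) had 62.1, 51.3, 55.7 and 72.7 normalised read counts in NTG and 109, 91.6 and 102 in mNrf2-TG. All mNrf2-TG hearts lay above all NTG hearts, with a gap between the groups wider than the range within mNrf2-TG and narrower than that within NTG. The mean rose from 60.4 ± 9.29 (SD, n = 4) to 101 ± 8.57 (SD, n = 3), a Log2FC of 0.74 (SE 0.15, adjusted p = 0.00934).

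Cyp51 and Sc5d, at the start and near the end of the same segment, did not pass the test and had estimates of opposite sign. Cyp51, which demethylates lanosterol, had 151, 138, 219 and 173 in NTG and 207, 228 and 232 in mNrf2-TG (Log2FC 0.39, SE 0.15, adjusted p = 0.10). NTG replicate 3 overlapped the mNrf2-TG libraries of Cyp51, and without that library the adjusted p was 0.00983. Of the 15 alternatives this was the only 1 under 0.05 for Cyp51, and the highest adjusted p was 0.217. Sc5d, a desaturase that acts just before Dhcr7, had 169, 160, 172 and 175 in NTG and 111, 136 and 152 in mNrf2-TG, without overlap (Log2FC -0.34, SE 0.12, adjusted p = 0.0721). For Sc5d the 95% interval ran from -0.61 to -0.08, and its adjusted p over the 15 alternatives ran from 0.0506 to 0.213.

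Hsd17b7, which reduces a sterol ketone during removal of methyl groups, had the most uneven NTG libraries of the members with a mean normalised read count of at least 50. It had 200 and 208 normalised read counts in NTG 1 and 2, 380 and 357 in NTG 3 and 4, and 164, 219 and 217 in mNrf2-TG (Log2FC -0.52, SE 0.24, adjusted p = 0.162). The mNrf2-TG hearts thus lay beside NTG 1 and 2 and below NTG 3 and 4. Msmo1 and Nsdhl, its partners in demethylation, had Log2FC of 0.08 and 0.25 (adjusted p = 0.725 and 0.36). Ebp, the sterol isomerase, had a Log2FC of -0.01 (SE 0.13), and Tm7sf2, a sterol reductase of low count, one of 0.13 (SE 0.38). Summed over the 17 sterol enzymes, the level was 65.1 ± 3.05 CPM per kilobase of exon in NTG and 62.1 ± 4.65 in mNrf2-TG, with overlapping ranges.

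**Figure D2:**
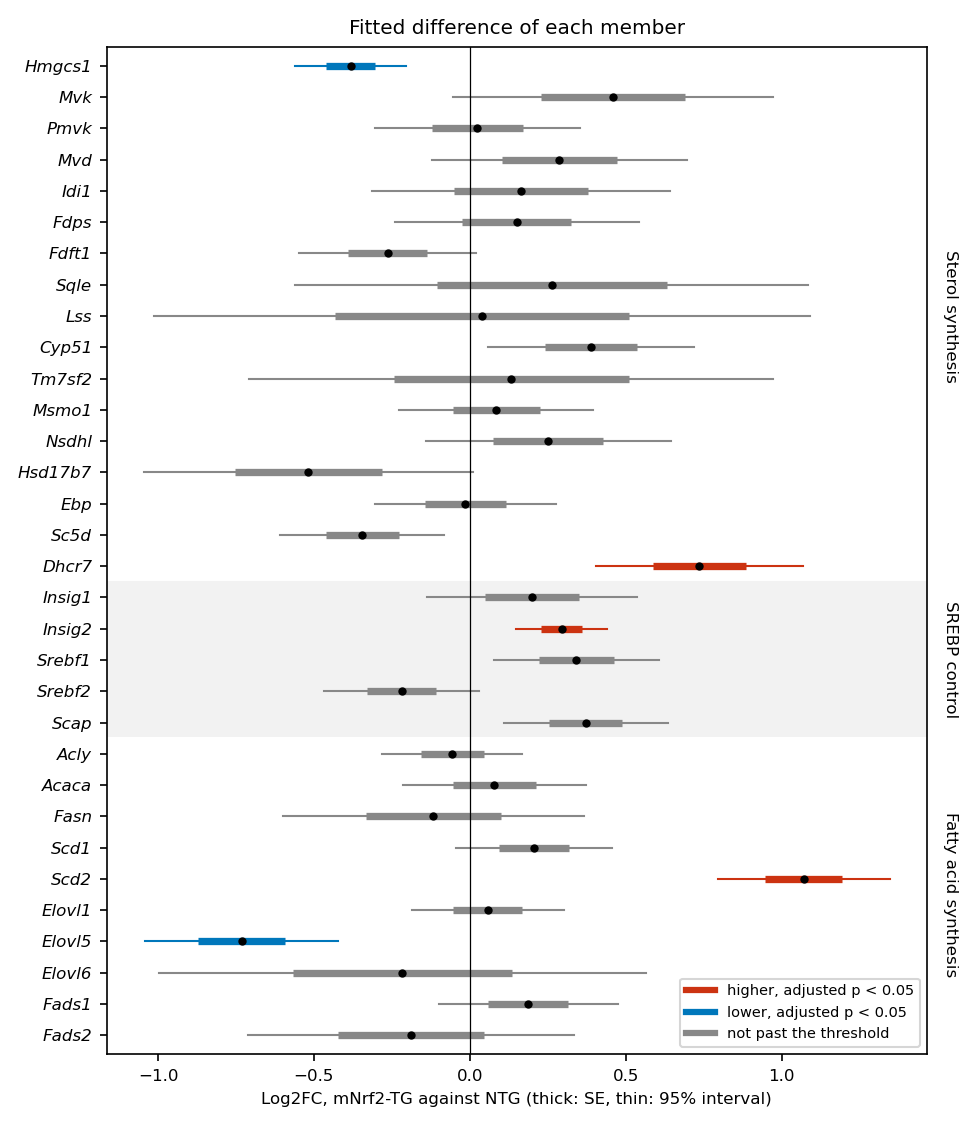
Fitted Log2FC of each member (x axis, points), with the SE as a thick bar and the 95% interval as a thin line, from edgeR's fit to 4 NTG and 3 mNrf2-TG libraries. Red marks the 3 members called higher, blue the 2 called lower and grey the 27 not called, of which 24 have an interval inside -1 to 1.

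Among the genes that control SREBP, Insig2 was called. Insig2 (chr1:121304353-121332589, −) encodes an endoplasmic reticulum protein that binds Scap and keeps SREBP from leaving. Its normalised read counts were 503, 518, 535 and 531 in NTG and 618, 651 and 651 in mNrf2-TG. All mNrf2-TG hearts lay above all NTG hearts, with little spread within either group. The mean rose from 522 ± 14.2 (SD, n = 4) to 640 ± 19.3 (SD, n = 3), a Log2FC of 0.29 (SE 0.07, adjusted p = 0.0149). Without mNrf2-TG replicate 18 the adjusted p was 0.0534, and this was the only alternative of 15 under which any of the 5 calls was lost.

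Insig1, which has the same role as Insig2, overlapped between the groups, with 134, 132, 176 and 109 in NTG and 147, 162 and 165 in mNrf2-TG (Log2FC 0.20, SE 0.15, adjusted p = 0.40). Per kilobase of exon, Insig2 made up 73.0% to 81.3% of the 2 Insig transcripts in NTG and 77.8% to 78.9% in mNrf2-TG. The share of Insig2 in mNrf2-TG lay inside the NTG range.

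Scap, the escort of SREBP, had 269, 195, 253 and 231 in NTG and 297, 284 and 337 in mNrf2-TG, without overlap. Its Log2FC was 0.37 (SE 0.12, adjusted p = 0.0559), and its adjusted p ran from 0.0436 to 0.178 over the alternatives, under 0.05 in 5 of them. Of its stretches of 50 bases, 9.96% also occur in the overlapping gene 5830462I19Rik.

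Srebf1, which encodes the SREBP that acts mainly on fatty acid genes, had 154, 163, 155 and 208 in NTG and 224, 208 and 215 in mNrf2-TG (Log2FC 0.34, SE 0.12, adjusted p = 0.0759). NTG replicate 4 reached the mNrf2-TG libraries, and without it the adjusted p of Srebf1 was 0.015. Of the 15 alternatives this was the only 1 under 0.05 for Srebf1, and the highest adjusted p was 0.191. Srebf2, which encodes the SREBP that acts mainly on sterol genes, had 215, 203, 229 and 204 in NTG and 154, 189 and 204 in mNrf2-TG (Log2FC -0.22, SE 0.11, adjusted p = 0.206). Per kilobase of exon, Srebf1 made up 46.3% to 56.5% of the 2 Srebf transcripts in NTG and 57.3% to 65.0% in mNrf2-TG, while their sum was 7.60 to 8.68 CPM per kilobase in NTG and 8.12 to 8.85 in mNrf2-TG. The shares did not overlap between the groups, and the sums did. This difference in share was not tested, and neither gene passed the test by itself. The level summed over the 5 control genes was 38.1 ± 1.66 CPM per kilobase in NTG and 45.2 ± 1.74 in mNrf2-TG, of which Insig2 gave 19.97 and 24.5.

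The enzymes that supply and assemble the fatty acid chain were not called. Acly, which releases acetyl-CoA from citrate in the cytosol, had a Log2FC of -0.06 (SE 0.10), and its 95% interval from -0.28 to 0.17 lay within 0.5 of zero. Acaca, the carboxylase that makes malonyl-CoA, had a Log2FC of 0.08 (SE 0.13), although 30.4% of its stretches of 50 bases also occur in other genes, mostly Gm5182. Fasn, which assembles palmitate, had 140, 152, 114 and 111 in NTG and 76.4, 157 and 123 in mNrf2-TG (Log2FC -0.12, SE 0.22, adjusted p = 0.754). The mNrf2-TG libraries of Fasn spread more widely than the NTG libraries, with 17 below the NTG range and 18 above it.

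Scd2 had the largest Log2FC of the 32 members, and was the only member beyond a 2-fold change. Scd2 (chr19:44293674-44306864, +) encodes a stearoyl-CoA desaturase, which puts the double bond into palmitate and stearate. Its normalised read counts were 125, 103, 103 and 129 in NTG and 231, 273 and 221 in mNrf2-TG. The lowest mNrf2-TG heart was well above the highest NTG heart. The mean rose from 115 ± 14.2 (SD, n = 4) to 242 ± 27.6 (SD, n = 3), a Log2FC of 1.07 (SE 0.12, 2.10-fold, adjusted p = 0.00063). Leaving out each library in turn gave a Log2FC of Scd2 from 0.97 to 1.14. Of its stretches of 50 bases, 3.97% also occur in Scd1, Scd3 or Scd4.

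Scd1, the paralog of Scd2, differed less and did not pass the test. It had 137, 142, 177 and 140 in NTG and 169, 172 and 174 in mNrf2-TG (Log2FC 0.20, SE 0.11, adjusted p = 0.241). Only NTG replicate 3 reached the mNrf2-TG libraries, and the adjusted p ran from 0.0622 to 0.392 over the alternatives.

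Scd4, a neighbour of Scd2 that is not on the list of 32 (chr19:44333092-44346743, +), is described because it is the most abundant desaturase of the family in mNrf2-TG hearts. It had normalised read counts of 176, 184, 3.09 and 337 in NTG and 1036, 1453 and 920 in mNrf2-TG (Log2FC 2.70, SE 0.63, adjusted p = 0.0177). NTG replicate 3 was nearly empty for Scd4 and not for Scd1, Scd2 or Scd3, and without it the Log2FC was 2.29 (SE 0.24, adjusted p = 0.000219). Scd4 was not called without NTG 1 (adjusted p = 0.0521), without NTG 2 (0.0521), without mNrf2-TG 18 (0.0556) or by DESeq2 (0.0789). Scd3, at 5.97 to 10.3 in NTG and 9.98 to 19.7 in mNrf2-TG, was not called (adjusted p = 0.156). Per kilobase of exon the 4 Scd genes summed to 7.82 to 19.1 CPM in NTG and 42.9 to 63.3 in mNrf2-TG. Scd4 made up 1.40% to 62.3% of the sum in NTG and 75.6% to 81.0% in mNrf2-TG.

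**Figure D3:**
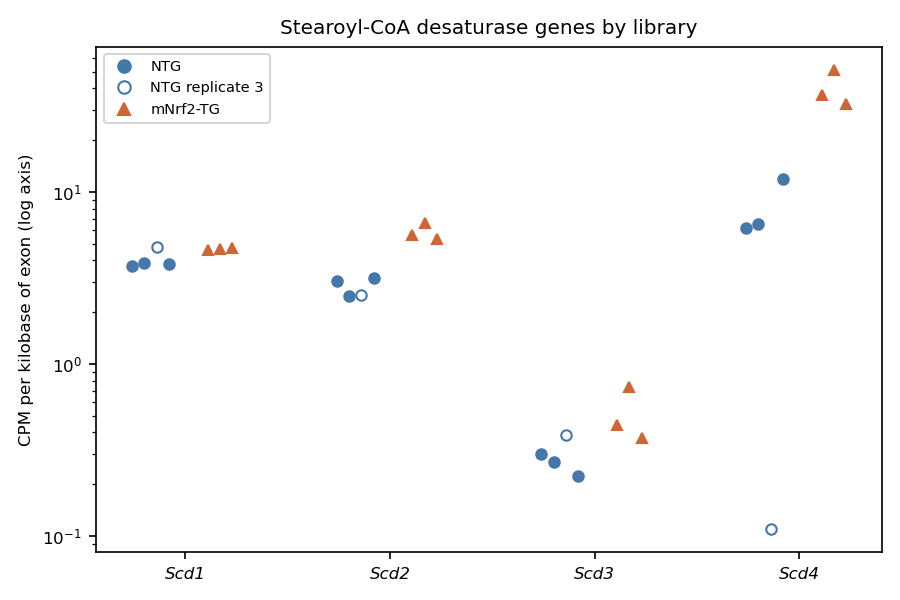
Level of the 4 stearoyl-CoA desaturase genes in each library, in CPM per kilobase of exon (y axis, log scale), with circles for NTG (open for NTG replicate 3) and triangles for mNrf2-TG. Scd2 and Scd4 lie higher in all 3 mNrf2-TG libraries than in any NTG library, Scd1 and Scd3 overlap between the groups, and Scd4 is near zero in NTG replicate 3.

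Elovl5 was the fatty acid gene that fell. Elovl5 (chr9:77917364-77984519, +) encodes the elongase of polyunsaturated chains. Its normalised read counts were 475, 389, 309 and 442 in NTG and 247, 256 and 225 in mNrf2-TG. All mNrf2-TG hearts lay below all NTG hearts, with NTG replicate 3 the nearest to them. The mean fell from 404 ± 72.2 (SD, n = 4) to 243 ± 16.0 (SD, n = 3), a Log2FC of -0.73 (SE 0.14, adjusted p = 0.00728), and leaving out each library gave -0.84 to -0.64.

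The other elongases did not pass the test. Elovl1, which extends saturated chains to very long ones, had a Log2FC of 0.06 (SE 0.11, adjusted p = 0.764). Elovl6, which turns palmitate into stearate, had a mean count under 20 and a Log2FC of -0.22 (SE 0.35). Per kilobase of exon, Elovl5 made up 56.7% to 65.2% of Elovl1, Elovl5 and Elovl6 in NTG and 45.6% to 51.6% in mNrf2-TG. Fads1 and Fads2, the desaturases that work on the same polyunsaturated chains as Elovl5, had Log2FC of 0.19 (SE 0.13, adjusted p = 0.348) and -0.19 (SE 0.23, adjusted p = 0.63). Summed over the 10 fatty acid genes, the level was 47.6 ± 2.77 CPM per kilobase in NTG and 45.6 ± 2.42 in mNrf2-TG. Of these sums Elovl5 gave 15.2 and 9.16, and Scd2 gave 2.80 and 5.88.

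In NTG hearts the members ranged from 0.125 CPM per kilobase of exon (Lss) to 19.97 (Insig2). The exon length joins the exons of all annotated transcripts of a gene, so that this order depends on the annotation. It was 10787 bases for Lss, 17074 for Acaca and 4403 for Tm7sf2. The mean normalised read count in NTG was higher for Lss (10.1) than for Tm7sf2 (9.08). After Insig2 came Elovl5 at 15.2 ± 2.72 (SD, n = 4), Fdft1 at 12.3 ± 1.44 and Hmgcs1 at 10.1 ± 0.36, of which Elovl5 and Fdft1 did not differ beyond their spread. Elovl1 at 8.95 ± 0.98, Acly at 8.77 ± 1.01 and Hsd17b7 at 7.46 ± 2.49 also lay within each other's spread. The gene of fatty acid synthase, Fasn, stood at 1.57 ± 0.24 and Acaca at 0.740 ± 0.05. In mNrf2-TG hearts Insig2 stayed on top at 24.5 ± 0.74, while Elovl5 at 9.16 ± 0.60 came to lie below Fdft1 at 10.3 ± 1.65 and beside Elovl1 at 9.30 ± 0.62, all within their spread. Scd2 moved from 2.80 ± 0.35 to 5.88 ± 0.67.

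**Figure D4:**
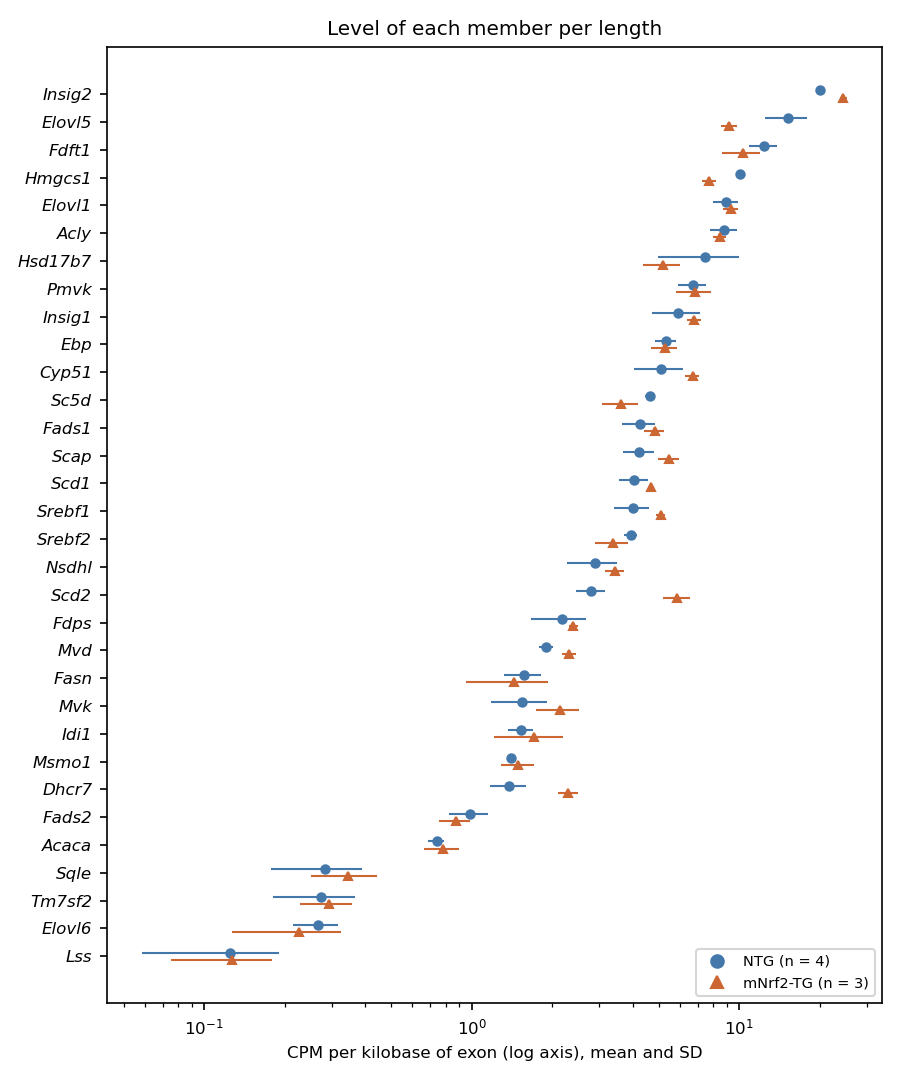
Mean level of each member in NTG (circles, n = 4) and mNrf2-TG (triangles, n = 3), in CPM per kilobase of exon (x axis, log scale), with SD bars, ordered by the NTG level. The exon length joins the exons of all annotated transcripts of a gene, so that the order depends on the annotation. Insig2 is at the top with 19.97 and 24.5, Lss at the bottom near 0.125, and Scd2 and Dhcr7 show the widest gaps to the right.

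Among the 27 members not called, the 95% interval of the Log2FC lay inside -1 to 1 for 24 and inside -0.5 to 0.5 for 9. It excluded zero for 4 of them, Cyp51, Sc5d, Srebf1 and Scap. Within groups, the 24 members with a mean normalised read count of at least 50 had a median coefficient of variation of 12.5% in NTG and 8.52% in mNrf2-TG, against 9.55% and 8.22% over all 9666 such genes. Of the mNrf2-TG libraries, 19 was the highest in 18 of the 32 members, where it was the highest in 33.6% of all genes.

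Genes around the list were taken from further pathway lists, and their share of calls is set beside the 17.2% of all genes. Of 8 other enzymes of the sterol and isoprenoid route, 0 were called by edgeR, DESeq2 or limma-voom, and 1 had an unadjusted p under 0.05. The most abundant of them per kilobase, Nus1, a subunit of the enzyme that makes dolichol precursors, had a Log2FC of -0.21 (SE 0.10, adjusted p = 0.182). Of 12 genes that process or degrade SREBP and Insig proteins, 2 were called, both higher. Mbtps1, the protease that makes the first cut in SREBP, rose by a Log2FC of 0.30 (SE 0.09, adjusted p = 0.0396), a call kept in 2 of 7 fits with a library left out.

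Of 20 further genes of fatty acid synthesis, 3 were called higher and 1 lower. Mlxipl, which encodes the glucose-responsive factor ChREBP that acts beside SREBP on fatty acid genes, had 205, 177, 262 and 206 normalised read counts in NTG and 97.9, 88.7 and 104 in mNrf2-TG. It fell in every mNrf2-TG heart relative to every NTG heart, with a Log2FC of -1.13 (SE 0.14, adjusted p = 0.00105), and was called under all 15 alternatives. Acss2, which makes acetyl-CoA from acetate, had 252 to 335 in NTG and 372 to 480 in mNrf2-TG (Log2FC 0.46, SE 0.12, adjusted p = 0.0293). Acss2 shares 395 exon bases with Gss on the opposite strand, and 6.13% of its stretches of 50 bases also occur in other genes. Mid1ip1, whose protein activates acetyl-CoA carboxylase, had 663 to 1048 in NTG and 1120 to 1353 in mNrf2-TG (Log2FC 0.47, SE 0.14, adjusted p = 0.0431), and 20.9% of its stretches of 50 bases also occur in Gm14493. The third gene called higher was Scd4. Leaving out single libraries kept the call in 4 of 7 fits for Acss2 and 3 of 7 for Mid1ip1. Tecr, the reductase of chain elongation and the most abundant gene of this list, had a Log2FC of 0.16 (SE 0.07, adjusted p = 0.145).

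**Figure D5:**
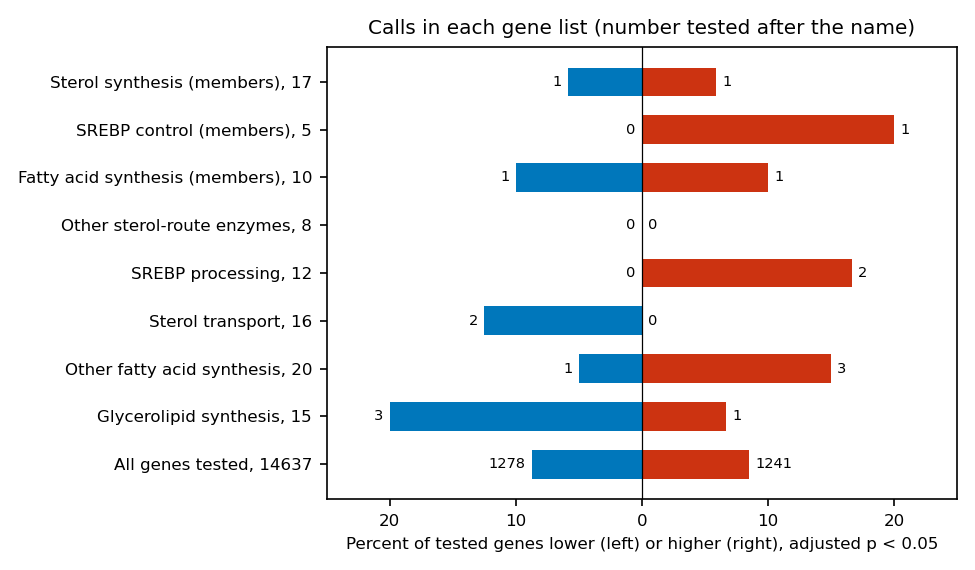
Percent of tested genes called lower (bars to the left) or higher (bars to the right) in mNrf2-TG at an adjusted p under 0.05, for the 3 groups of members, 5 further pathway lists and all 14637 genes, with counts beside the bars. Each list holds 20 genes or fewer, so that 1 gene moves a bar by 5% or more, and over all genes 1278 were lower and 1241 higher.

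Markers of other cell types also differed between the hearts. Of 7 macrophage markers 5 were called higher, with a summed level of 164 to 201 CPM per kilobase in NTG and 261 to 343 in mNrf2-TG. Of 6 fibroblast markers 4 were called higher (163 to 201 and 211 to 231). Endothelial markers summed to 166 to 182 in NTG and 154 to 157 in mNrf2-TG, with 1 of 7 called higher and 2 lower, and 3 of 7 cardiomyocyte markers were called lower. The part of these shifts in the values of Scd2, Dhcr7, Insig2, Hmgcs1 and Elovl5 was not tested. NTG replicate 3 was the NTG library nearest to mNrf2-TG in the summed macrophage (201), fibroblast (201) and cardiomyocyte markers (24084). For endothelial markers it lay inside the NTG range (172). Whether this enters the values of NTG replicate 3 for the members was not tested. Whether fat in the samples enters the values of the Scd desaturases was not tested. Among 7 adipocyte markers tested, of 11 listed, edgeR called 0, as did DESeq2 and limma-voom, with 1 at an unadjusted p under 0.05. Their Log2FC ran from -1.58 to 2.58, with a median of 0.54, 4 positive and 3 negative. Adipoq had 0 to 5 raw counts per library and Plin1 0 to 3, and the summed level of the list was 32.8 to 42.4 in NTG and 26.8 to 33.9 in mNrf2-TG. Lipe (257 to 446 raw counts) and Cidea (159 to 271) held most of its counts. Counts of Cfd, Pck1 and Car3, also tested, are not given here, and whether the summed level measures fat was not tested. Of 7 Schwann cell markers, edgeR, DESeq2 and limma-voom called 0 and 0 had an unadjusted p under 0.05, with summed levels of 36.9 to 43.6 in NTG and 35.9 to 38.8 in mNrf2-TG.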

How the data were processed

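Stranded poly(A) libraries of 7 hearts were sequenced as single reads of 50 bases. Per the labels' processing notes, the authors aligned reads with Novoalign 2.08.01 and used DESeq2 1.32.0. Both hg19 and mm10 (GRCm38) appear in the methods as the reference. The counting program and its strand setting are not given in the sources used here. The authors deposited read counts per gene without normalization. The authors also deposited log2 values (DESeq2 rlog), used only for distances between libraries, and a signal column, the mean over libraries of counts divided by size factors, which differed from the same mean recomputed from the counts by at most 0.29%. The authors' fold changes, standard errors, Wald statistics and p-values were not used.

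Of 14665 entries, 24 repeats of an Entrez gene with identical counts were removed, and 14637 genes with a summed count above 1 were tested in edgeR 4.0.16 under R 4.3.3 (TMM, quasi-likelihood test, no covariate, Benjamini-Hochberg adjustment over all genes). The SE was taken as the size of the Log2FC over the root of the F statistic. CPM were divided by the GENCODE M21 exon length, the joined exons of all transcripts of a gene, and positions are from the same annotation. Stretches of 50 bases shared between genes were counted in GENCODE M21 transcripts, and promoters are from RefSeq. Genes with few counts carry little information on moderate changes at these totals.

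Named were all members, Nfe2l2, every gene of the further lists that was called without overlap between groups, and the most abundant gene of a list where it was not called. Of the genes this rule names, 1 is not reported here. The Scd3 comparison and the Adipoq, Plin1, Lipe and Cidea counts were added after the values were seen. Members and lists were chosen with earlier results of these data known. The 15 alternatives were DESeq2 1.42.0, limma-voom (limma 3.58.1), edgeR scaled by DESeq2 size factors or by library totals only, filterByExpr, a minimum of 10 counts throughout 1 group, no filter, all entries, and omission of each of the 7 libraries.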

Additional observations from a re-analysis of the deposited data

Results flagged for a closer look

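Of 47 sets of 4 NTG libraries checked, 3 held a library that stood far from the other 3 by Dixon's criterion at 95%, which chance passes in about 1 of 20 sets. The mNrf2-TG group, with 3 libraries, was not checked. For Srebf1, NTG replicate 4 had a normalised read count of 208, where the other NTG libraries had 154 to 163. For Scd1, NTG replicate 3 had 177, where the others had 137 to 142. For Fads2, NTG replicate 1 had 18.4, where the others had 25.9 to 27.0. No cause was tested for any of the 3.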

How the results depend on the processing

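The count of members called lower was 2 under all 15 alternatives. The count called higher was 3, stayed 3 or became 4 under the 8 alternatives that kept every library, and ran from 2 to 5 when single libraries were left out. It was 5 without NTG replicate 3, where Cyp51 and Scap were added, and 2 without mNrf2-TG replicate 18, where Insig2 was lost. Hmgcs1, Dhcr7, Scd2 and Elovl5 were called under all 15. Over all genes 2519 were called, 2417 to 2655 under the 8 alternatives and 1373 (without mNrf2-TG 17) to 2950 (without NTG 3) with a library left out. The library total alone moved the median Log2FC of all genes by 0.03. The sign of 10 members, none called, turned under an alternative. With single libraries left out, the Log2FC ran from -0.11 to 0.10 for Pmvk (also -0.026 and -0.0049), -0.10 to 0.28 for Idi1, -0.31 to 0.39 for Lss (also -0.18 and -0.14), -0.056 to 0.33 for Tm7sf2 (also -0.030), -0.026 to 0.17 for Msmo1, -0.065 to 0.073 for Ebp (also 0.017 and 0.032), -0.11 to 0.031 for Acly, -0.0092 to 0.19 for Acaca, -0.36 to 0.11 for Fasn and -0.0011 to 0.12 for Elovl1. With the library total alone, Ebp was at 0.017. The cause was not tested. No paired analysis was run, because the replicate numbers do not pair mice across the groups. Depth limits Sqle, Lss, Tm7sf2 and Elovl6 most, each with a mean normalised read count under 20.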

Other observations

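Of 16 genes of sterol uptake, transport and efflux, 2 were called, both lower (12.5%, against 17.2% of all genes). Vldlr, the receptor for very low density lipoprotein, had normalised read counts of 4481 to 5271 in NTG and 3427 to 3855 in mNrf2-TG (Log2FC -0.43, SE 0.08, adjusted p = 0.00568). Mylip, a ubiquitin ligase that degrades lipoprotein receptors, had 212 to 314 in NTG and 162 to 180 in mNrf2-TG (Log2FC -0.61, SE 0.13, adjusted p = 0.0123), and its adjusted p was 0.0533 without mNrf2-TG replicate 17.

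Of 15 genes of glycerolipid synthesis and lipid droplets, 3 were called lower and 1 higher (26.7%, against 17.2% of all genes). These shares were not tested against each other. Dgat2, which makes triglyceride, had 3886, 3832, 3029 and 2944 in NTG and 1503, 2015 and 2142 in mNrf2-TG (Log2FC -0.86, SE 0.14, adjusted p = 0.00427). Lpin1, the phosphatase that supplies its diacylglycerol, had 2432 to 3084 in NTG and 1747 to 1839 in mNrf2-TG (Log2FC -0.65, SE 0.09, adjusted p = 0.00146). Every mNrf2-TG heart lay below every NTG heart for both genes, and both were called under all 15 alternatives. Agpat5, an acyltransferase, fell by 0.53 on the log2 scale (SE 0.12, adjusted p = 0.0134), a call lost without mNrf2-TG replicate 17 (adjusted p = 0.0572), and 18.6% of its stretches of 50 bases also occur in other genes. Plin5, a coat protein of lipid droplets in oxidative tissue, rose by a Log2FC of 0.36 (SE 0.09, adjusted p = 0.0227), a call kept in 3 of 7 fits with a library left out.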
